A study of Drosophila melanogaster with 2 samples.

Results

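Glial genes were examined among the binding sites of CG12744, a Drosophila protein carrying a GFP tag. The 7 genes are moody, loco, nrv2, Gs2, repo, gcm and gcm2, out of 13945 protein-coding genes on the 6 chromosome arms. The set was chosen by measured values of these data, in which moody had a high promoter peak, together with well-known glial genes, so the presence of peaks at these genes is given as a description and no test was made on it. For each gene, all peaks were collected whose summit lies inside the gene or within 2000 bp of it. DNA bound by the tagged protein was pulled down with an antibody to GFP and sequenced (ChIP-seq), from a transgenic fly line whose GFP tag is at the C-terminus of CG12744. The source was whole embryos aged 0 to 24 h, males and females together, with chromatin sonicated to 200 to 800 bp. The labels do not name the promoter that drives the tagged gene, and controls without the tag were not analysed here. The 2 samples are biological replicates 2 and 4 of 1 group, with no other genotype, treatment or stage to compare. Peaks were deposited as 1 list of 30000 for each replicate, 1 pooled list of 30000, and a thresholded list of 2758 peaks. The thresholded list was made by the irreproducible discovery rate, and 2604 of its peaks had a summit within 100 bp in both replicates. Read depth is unknown from these lists. The embryos hold all tissues, so a peak at a glial gene does not show that glia carried it, and a site bound in few cells cannot be told apart from a site bound weakly in many.

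In flies, glia are set apart from neurons by the transcription factor gcm (glial cells missing), helped by its neighbouring paralogue gcm2, and the homeodomain protein repo then keeps lateral glia in that fate. Surface glia wrap the nerve cord and form the blood-brain barrier by septate junctions. The G protein-coupled receptor moody and the RGS protein loco (locomotion defects), which speeds GTP hydrolysis by G alpha subunits, act together in closing that barrier. The gene nrv2 (nervana 2) encodes a beta subunit of the Na,K-ATPase that also takes part in septate junctions, and Gs2 encodes a glutamine synthetase, the enzyme with which glia turn glutamate taken up from synapses into glutamine.

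The receptor, the RGS protein, the pump subunit and the enzyme each had at least 1 thresholded peak, and the 3 fate genes had none. In all, 4 of 7 genes had a thresholded peak in the gene or within 2000 bp, while 25.9% of protein-coding genes did so (3605 genes). Only moody and nrv2, 2 of 7, had a thresholded promoter peak, with its summit within 500 bp of an annotated start site, against 14.4% of protein-coding genes (2010 genes). The rule that chose the genes used these peaks, so nothing is read from the counts. The 5 thresholded peaks themselves lay upstream of moody, in an intron of Gs2, in an intron of loco, in an intron of nrv2, and in the gap between nrv2 and its neighbour nrv1.

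The sequences of 201 bp centred on the 5 thresholded summits are shown because they are the bound DNA that the results below turn on. They were read from the RefSeq Release 6 (dm6) genome sequence, and each is written on the strand of its gene. Capitals mark CACTG or its reverse complement CAGTG, the 5-base element whose share is given below. The window of moody is chrX:2050176-2050376 on the minus strand. The window near nrv1 is chr2L:6788041-6788241, and that in the nrv2 intron is chr2L:6794975-6795175, both on the minus strand. The loco window is chr3R:22627121-22627321 on the minus strand, and that of Gs2 is chrX:11423263-11423463 on the plus strand. None of the 5 windows holds an annotated coding or UTR base.
moody: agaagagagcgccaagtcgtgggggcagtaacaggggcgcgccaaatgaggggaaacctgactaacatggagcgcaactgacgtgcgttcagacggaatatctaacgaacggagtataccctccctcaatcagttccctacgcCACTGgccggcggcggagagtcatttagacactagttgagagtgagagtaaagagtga
nrv2 intron: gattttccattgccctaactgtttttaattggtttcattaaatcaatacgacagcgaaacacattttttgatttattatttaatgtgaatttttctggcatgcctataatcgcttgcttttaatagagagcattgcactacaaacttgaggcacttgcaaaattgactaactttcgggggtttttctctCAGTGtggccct
between nrv2 and nrv1: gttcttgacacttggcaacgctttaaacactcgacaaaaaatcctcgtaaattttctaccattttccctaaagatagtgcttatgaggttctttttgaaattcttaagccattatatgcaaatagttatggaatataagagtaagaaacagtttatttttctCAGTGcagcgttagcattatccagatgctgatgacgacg
loco: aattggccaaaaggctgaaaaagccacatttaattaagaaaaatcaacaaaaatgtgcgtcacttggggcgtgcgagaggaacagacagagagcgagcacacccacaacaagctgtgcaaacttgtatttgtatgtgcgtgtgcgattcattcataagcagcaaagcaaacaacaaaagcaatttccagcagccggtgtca
Gs2: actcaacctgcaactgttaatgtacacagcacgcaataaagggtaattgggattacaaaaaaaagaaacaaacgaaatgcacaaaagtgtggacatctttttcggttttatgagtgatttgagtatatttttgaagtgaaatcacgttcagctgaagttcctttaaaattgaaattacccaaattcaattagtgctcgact

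The gene moody (FBgn0025631) lies on chromosome X at 2044292 to 2050120 of dm6, on the minus strand, inside the larger gene CG4313 of the plus strand. Its peak had the highest signal of the 5, at 310 in the pooled list, where the thresholded peaks run from 68.4 through a median of 99.1 to 1148. It was rank 110 of 30000 pooled peaks, with rank 107 and a signal of 165 in replicate 2, and rank 108 and a signal of 148 in replicate 4. Its place was thus nearly the same in every list. The summit at 2050276 was 156 bp upstream of the start site of the 2 moody transcripts that begin farthest upstream and 1881 bp upstream of the start site of the other 4, in an intron of CG4313. The summits of the replicates lay 0 and 6 bp from it. No other gene had a start site within 500 bp of it. The peak spans 2050152 to 2050423, a width of 272 bp, while 84% of thresholded peaks had a width of 410 bp. Narrower peaks were common at high rank, at 73% of ranks 1 to 500.

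Of the 7634 protein-coding genes with any pooled promoter peak, 99 had a higher one than moody. The genes next to moody in that order were CG8034 on chromosome X at rank 107 and CG6966 on 3R at rank 109 above it, and bbx on X at rank 111 and nebu on 3L at rank 112 below it. Their pooled signals were 314, 312, 309 and 308, so the order among these neighbours rests on differences of a few units of signal. Apart from its promoter peak, moody had 4 pooled peaks, none thresholded, with signals of 23.2 to 32.7. Of these, 2 lay in the 5′ UTR of moody and 1 in an intron of CG4313, each found in replicate 2 alone by summits within 100 bp. A replicate 4 peak at 2048994 to 2049397 overlapped both 5′ UTR peaks. The remaining pooled peak was 100 bp upstream of the shared start region of Actn and usp, outside moody, and was found in both replicates.

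The gene loco (FBgn0020278) lies on 3R at 22619968 to 22639387 on the minus strand and has 4 start sites. Its thresholded peak had its summit at 22627221, in an intron, 587 bp upstream of the most downstream start site, at 22626634, just beyond the promoter limit used here. Its pooled signal was 106 at rank 1208. Replicate 2 placed it at rank 1011 with a signal of 63.8, and replicate 4 at rank 1586 with a signal of 43.1. Around the most upstream start site, shared in reach with the neighbouring gene wake (wide awake), the replicates placed their summits more than 100 bp apart. A pooled peak 26 bp upstream of the loco start, with a signal of 53.2 at rank 4402, was found in replicate 4 alone at rank 3629. A second one 257 bp upstream, which is 164 bp from the wake start, had a signal of 52.2 at rank 4555 and was found in replicate 2 alone at rank 2644. Neither was thresholded. By summits within 100 bp, the only peak of loco that both replicates ranked high was the intronic one.

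The gene nrv2 (FBgn0015777) lies on 2L at 6789770 to 6798862 on the minus strand and also has 4 start sites. Its intronic peak at 6795075 lay 476 bp upstream of the most downstream start, at 6794599, which 3 of its 6 transcripts use, just inside the promoter limit. The pooled signal was 80.7 at rank 2011, with rank 2288 and a signal of 43.3 in replicate 2 and rank 2548 and a signal of 34.1 in replicate 4. Both replicates therefore held it among their 2758 highest peaks, near the lower end. The second thresholded peak of nrv2, at 6788141, lay 1629 bp past the end of nrv2 and 1280 bp upstream of the start of nrv1, a paralogous beta subunit on the same strand. It had a pooled signal of 80.5 at rank 2023, with rank 3620 and a signal of 34.6 in replicate 2 and rank 1614 and a signal of 42.7 in replicate 4. Replicate 2 thus placed it below its 2758 highest peaks.

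The highest peaks around nrv2 belong by position to nrv1. The 2 genes are 2908 bp apart, and nrv1 had promoter peaks 287 bp upstream of its start, with a signal of 280 at rank 142, and 486 bp upstream, with a signal of 165 at rank 480. The replicates ranked the first at 210 and 99 and the second at 418 and 382. The second lay 2423 bp from nrv2 and so just missed its window. Inside nrv2, 2 further peaks were uneven between the replicates. One at 6797658, with a signal of 58.3 at rank 3727, was at ranks 2325 and 15121 in replicates 2 and 4. Another in the 5′ UTR at 6798443, with a signal of 42.9 at rank 6421, was found in replicate 4 alone, at rank 3001.

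The gene Gs2 (FBgn0001145) lies on X at 11422832 to 11430197 on the plus strand. Its thresholded summit at 11423363 fell between its 2 start sites, 531 bp downstream of the first and 594 bp upstream of the second, in an intron, and so within 500 bp of neither. The pooled signal was 185 at rank 354. Replicate 2 placed it at rank 251 with a signal of 117, and replicate 4 at rank 696 with a signal of 66. It was the second highest of the 5 peaks in all 3 full lists. The peak spans 11423325 to 11423445, 121 bp, a width or less seen in 2.94% of thresholded peaks, or 81 peaks. A further intronic peak at 11427513 had a signal of 58 at rank 3774 and was found in both replicates at ranks 4149 and 4807. The highest pooled promoter peak of Gs2 had rank 26941 and had no summit within 100 bp in either replicate.

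**Figure D1:**
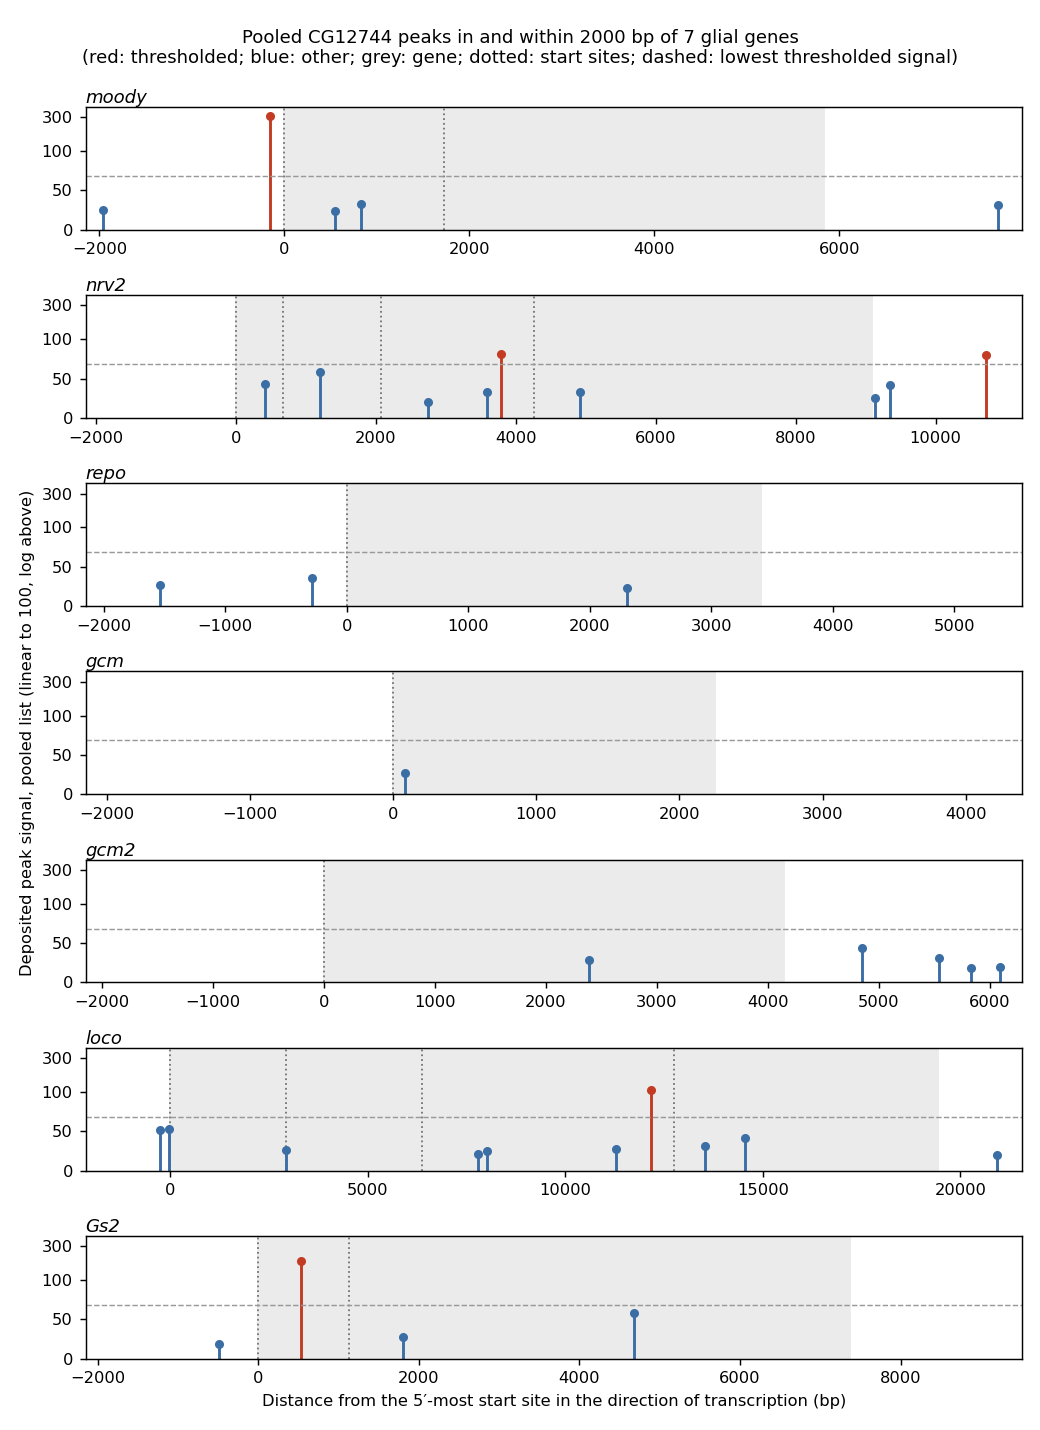
Pooled CG12744 peaks in and around 7 glial genes; the horizontal axis is the distance in bp from the most upstream start site in the direction of transcription, and the height is the deposited pooled signal, linear to 100 and logarithmic above. Red stems are the 5 thresholded peaks and blue stems the other 32 pooled peaks, and the panels of repo, gcm and gcm2 hold blue stems alone.

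The peaks at the fate genes were low, and those inside the genes or upstream of them were each found in only 1 replicate. The single-transcript gene repo (FBgn0011701, 3R at 18236192 to 18239602, plus strand) had 3 pooled peaks, the highest 283 bp upstream of its start with a signal of 35.7 at rank 8833. That peak was rank 4005 in replicate 4 and was not found in replicate 2, and the other 2 were also found in replicate 4 alone. For gcm (FBgn0014179, 2L at 9579498 to 9581745, minus strand) the 1 pooled peak lay in the 5′ UTR, 84 bp downstream of the start, with a signal of 26.5 at rank 15028. It was found in replicate 2 at rank 8277, and replicate 4 had 0 peaks in the window of gcm. The highest signal in the window of gcm2 (FBgn0019809, 2L at 9608562 to 9612706, plus strand) was 43.2 at rank 6332, but that summit lay 6 bp from a start site of Trx2, a thioredoxin gene, and outside gcm2. Inside gcm2 there was 1 pooled peak, in a coding exon, with a signal of 29 at rank 12752, found in replicate 4 alone. No pooled peak lay within 500 bp of the gcm2 start. All of these signals were below the lowest thresholded signal of 68.4.

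Counting peaks of any rank, 7 of 7 genes had a pooled peak in the gene or within 2000 bp, where the background was 76.4% of protein-coding genes (10652 genes). For promoters the count was 6 of 7, gcm2 being without one, against a background of 54.7% (7634 genes). A pooled peak of any rank thus marked most genes in the genome. The 7 windows held 37 pooled peaks, 46 peaks of replicate 2 and 37 of replicate 4. Of the 37 pooled peaks, 17 had a summit within 100 bp in both replicates, 8 in replicate 2 alone, 8 in replicate 4 alone and 4 in neither. Among the 32 that were not thresholded, 12 were found in both. Of the 5 thresholded peaks, 5 were found in both replicates at any rank, and 4 were among the 2758 highest of both, the exception being the peak near nrv1.

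The thresholded peaks differed in how alike the replicates ranked them. The ratio of the larger to the smaller replicate rank was 1.01 for moody, 1.11 for the nrv2 intron, 1.57 for loco, 2.24 for the peak near nrv1 and 2.77 for Gs2. Over the 2604 thresholded peaks found in both replicates, which are 94.4% of them, the median ratio was 1.62 with quartiles of 1.25 and 2.35. The ratio of moody was matched or exceeded by 99% of those peaks, and that of Gs2 by 18%. Gs2 and loco ranked higher in replicate 2, the peak near nrv1 ranked higher in replicate 4, and moody and the nrv2 intron were nearly level.

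**Figure D2:**
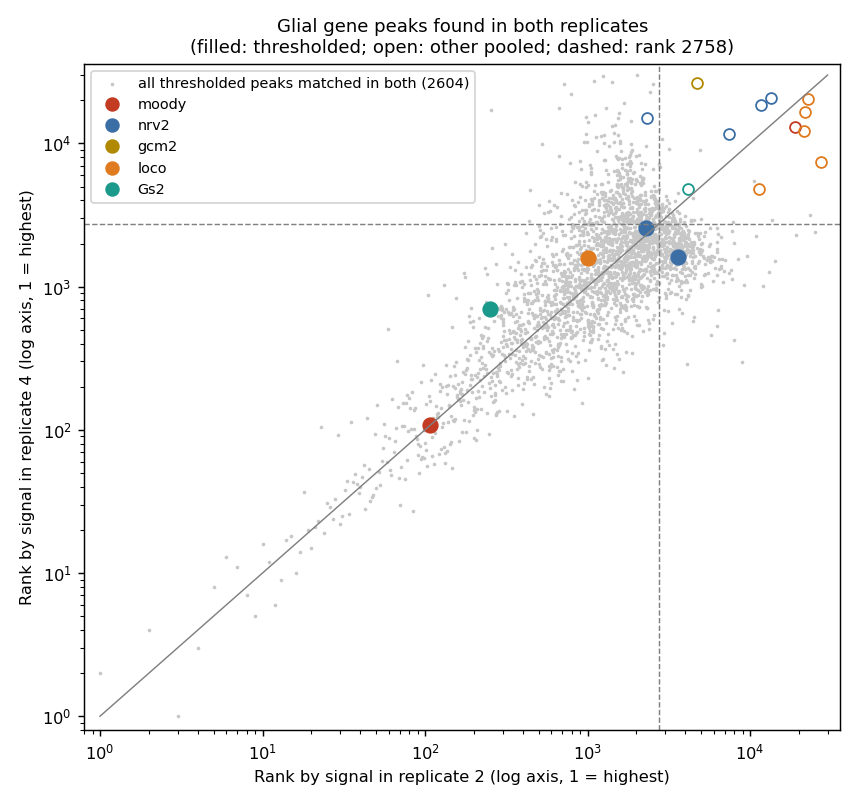
Rank by signal in replicate 2 (horizontal) and replicate 4 (vertical) of peaks found in both, on log axes where 1 is the highest; grey points are the 2604 thresholded peaks found in both replicates, filled colours the thresholded peaks of glial genes and open colours their other pooled peaks. The moody peak sits on the diagonal at ranks 107 and 108, and the dashed lines at rank 2758 leave the peak near nrv1 outside in replicate 2.

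In position, the moody summit fell in the class that held the most thresholded peaks, and the other 4 lay farther from a start site. Of all thresholded summits, 48.2% lay within 250 bp of a start site, 9.72% from there to 500 bp, 9.57% from there to 1000 bp, 10% from there to 2000 bp and 22.5% farther away. The moody summit fell in the first class and the nrv2 intron peak in the second. Gs2, at 531 bp from its nearest start, and loco, at 587 bp, fell in the third class, and the peak near nrv1 in the fourth. The 3 peaks inside genes thus lay 476 to 587 bp from a start site of the same gene, on both sides of the 500 bp limit.

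**Figure D3:**
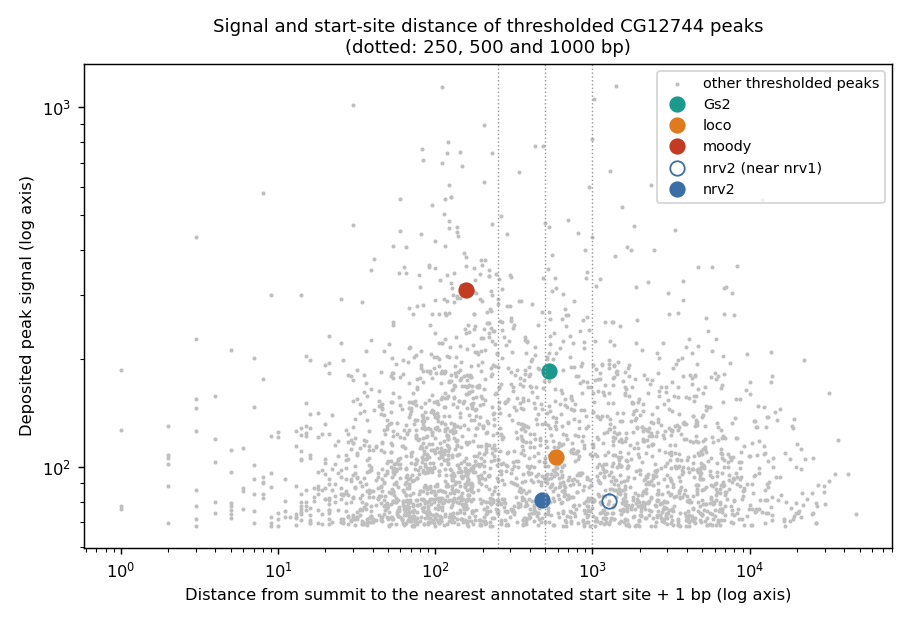
Deposited pooled signal of the 2758 thresholded peaks against the distance of the summit to its nearest annotated start site plus 1 bp, both on log axes; coloured points are the 5 peaks of glial genes and dotted lines stand at 250, 500 and 1000 bp. The moody peak, at 310, is the only coloured point left of the first line, and Gs2, loco and the nrv2 intron lie near the second.

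Gene length and the number of start sites went with the split between the genes that had a thresholded peak and those that did not. The 4 genes with one are 5829 to 19420 bp long, have 2 to 4 start sites and fall in the longest quartile of protein-coding genes, in which 39.1% had a thresholded peak in the gene or within 2000 bp. The 3 fate genes are 2248 to 4145 bp long with 1 start site each, in the next quartile, in which the share was 27.8%. In the shortest quartile it was 13.9%. The part of length in the difference was not tested.

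The base composition of the windows set moody apart from the others. Its 201 bp held 54.2% G and C, reached by 2.25% of all thresholded windows, whose median was 36.3% with quartiles of 32.3% and 41.3%. The loco window held 43.8%, and those of the nrv2 intron, the peak near nrv1 and Gs2 held 35.3%, 34.8% and 33.8%. The last 3 fall inside the middle range of all windows.

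Of 11 short sequences searched on both strands in these windows, 3 were found in any of the 5. CACTG was in 3 of 5 windows, those of moody, the nrv2 intron and the peak near nrv1. The share was 48.3% of all thresholded windows (exact 95% binomial interval 46.5% to 50.2%) and 36.9% of windows of the same length at the 19252 distinct protein-coding start sites. Within 50 bp the shares were nearly level, at 23.9% of thresholded and 23.1% of start-site windows, and CACTG was in 1 of 5 glial windows. Within 200 bp they were 67.9% and 57.5%, and CACTG was in 3 of 5. In the moody window the match lay 43 to 47 bp downstream of the summit on the strand of the gene. In both nrv2 windows it was on the opposite strand, 89 to 93 bp downstream in the intron and 62 to 66 bp downstream in the window near nrv1. GAGAG, the core recognised by GAGA factor, was also in 3 of 5 windows, those of moody with 4 matches, loco with 2 and the nrv2 intron with 2. Its share was 23.9% of all thresholded windows and 25% of start-site windows. In the nrv2 intron 1 of the matches is on the opposite strand and shares 1 base with the CACTG element.

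TAATTA, a core bound by homeodomain proteins, was in the loco window alone, beside 14.4% of thresholded and 9.39% of start-site windows. ATGCGGG, the core of the site bound by gcm, was in 0 of 5 windows, and in 0.508% of thresholded and 0.738% of start-site windows. The longer CAACACTG was in 0 of 5 and in 3.92% and 2.58%, and the GATA core AGATAAG in 0 of 5 and in 3.41% and 2.66%. CGATA, which BEAF recognises, was in 0 of 5 where 30.8% of thresholded and 37.1% of start-site windows held it, and the Dref site TATCGATA, which contains it, in 0 of 5 where 4.6% and 6.45% did. The E-box CACGTG, the Zelda site CAGGTAG and the Ets core CCGGAAG were also in 0 of 5, and in at most 2.43% of thresholded and 2.8% of start-site windows. The Gs2 window held none of the 11. A match or its absence describes only the letters in these windows.

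The pathway of moody was followed through 17 genes for G protein signalling and its effectors, listed from general knowledge. Whether each acts with moody in barrier glia was not tested. Of these, 5 (29.4%) had a thresholded promoter peak, beside 14.4% of all protein-coding genes, and 10 (58.8%) had one in the gene or within 2000 bp, beside 25.9%. Besides moody they were sqh, the regulatory light chain of myosin, at rank 1543, Rho1, a small GTPase that controls actin, at rank 1923, the G alpha subunit gene Galphai at rank 1928, and the G gamma subunit gene Ggamma1 at rank 2165. Rho1 shares its peak with CG8414, and Ggamma1 with MrgBP. The pooled signals of these 4 were 77.9 to 93.6, well below the 310 of moody. The sqh peak was uneven, at ranks 12009 and 1005 in replicates 2 and 4. The median length of the 17 genes was 16983 bp, against 2166 bp for all protein-coding genes. The counts include moody and, in the gene or within 2000 bp, loco, which belong to the glial set chosen by these data.

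Several window peaks in this list lie at other genes. The receptor kinase gene Gprk2 had a peak at rank 10, which is 81 bp from the start of PNPase, and Gbeta13F, for a G beta subunit, had one at rank 62, which is 155 bp from the start of Gapdh2. The peak of pins, a partner of Galphai in cell polarity, lay 74 bp from the start of wdb. The peaks of Pka-C1, the catalytic subunit of protein kinase A, and of loco were nearest to their own gene. Tre1, a receptor related to moody, had a thresholded peak 1118 bp upstream of its start, with a signal of 175 at rank 421 and ranks of 384 and 505 in replicates 2 and 4. Its highest promoter peak had rank 23197. Among 6 genes for RGS proteins, loco included, 1 (16.7%, beside 14.4%) had a thresholded promoter peak, Dhit at rank 2717 with a signal of 68.9, close to the lowest thresholded signal.

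Septate junctions, which seal the barrier, were followed through 26 genes. A thresholded promoter peak was found at 6 of them (23.1%), beside 14.4% of all protein-coding genes, and 13 (50%) had one in the gene or within 2000 bp, beside 25.9%. The highest was at cold, for a Ly6-family protein of septate junctions, with a signal of 185 at rank 350, shared with Ipk2. Next came Atpalpha, the catalytic subunit of the Na,K-ATPase, at rank 881, dlg1, a scaffold protein, at rank 899, and pck, a claudin, at rank 908. The lowest were nrv2 at rank 2011 and cora, a FERM-domain protein, at rank 2133. By summits within 100 bp, the Atpalpha peak was found in replicate 4 at rank 471 and had no match in replicate 2. The missing match does not show that replicate 2 had no peak at that promoter. With replicate 2 alone, the promoter count of the Na,K-ATPase subunit genes was still 3. The cold peak was at ranks 369 and 413. Some window peaks in this list lie near starts of other genes. The highest of vari, bou and bark were 89, 281 and 426 bp from the starts of CG9328, ogre and Reph. The median length of the 26 genes was 8624 bp.

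Among 8 genes for Na,K-ATPase subunits, 3 (37.5%) had a thresholded promoter peak, beside 14.4% of all protein-coding genes, namely nrv1 at rank 142, Atpalpha at rank 881 and nrv2 at rank 2011. The same 3 were the ones with a peak in the wider window, beside 25.9%. Of 9 genes for the handling of glutamate and glutamine, 1 (11.1%, beside 14.4%) had a thresholded promoter peak, gb (genderblind), a subunit of a glutamate exchanger, with a signal of 139 at rank 700, shared with CG5815. In the wider window there were 3 (33.3%, beside 25.9%), the others being Gs2 and Gdh, glutamate dehydrogenase, at rank 836. The glutamate transporter gene Eaat1, a marker of glia, had no pooled peak of any rank in its window.

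Among 11 genes for glial fate and transcription factors, 3 (27.3%) had a thresholded promoter peak and 6 (54.5%) a peak in the wider window, at a median gene length of 22211 bp. The 3 were N, the Notch receptor, with a signal of 91.6 at rank 1608, pnt, an Ets factor, with 70.3 at rank 2626, and pros, a homeodomain factor of neural precursors, with 69.3 at rank 2692. By summits within 100 bp, the pnt peak was found in replicate 2 at rank 1310 and had no match in replicate 4. The pros peak was at ranks 4468 and 4166. N was at ranks 1231 and 2512. Of 20 glial effector and marker genes, 2 (10%) had a thresholded promoter peak, moody and nrv2, and 6 (30%) a peak in the wider window, adding loco, Gs2, ced-6 and trol. The peaks of ced-6, an engulfment adaptor, and trol, the fly perlecan, lay nearest to the starts of Camta and boi. The promoter and window shares of the effector and marker genes are near the backgrounds of 14.4% and 25.9%. Those of the fate and transcription factor list are above them, but rest on 3 and 6 of 11 genes. In the longest quartile of protein-coding genes the window share was 39.1%. The highest window peaks of pnt, retn, pros and N lay nearest to starts of lncRNA:CR46090, Pde8, mRpL40 and CG18508. Those of ttk and aop lay nearest to their own starts.

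By rank, the median of the highest promoter peak was 14776 for the effector and marker genes and 15453 for the glutamate genes. It was 8833 for the fate and transcription factor list, 6700 for the septate junction genes and 6391 for the moody pathway. Over all protein-coding genes it was 22579. Genes without a pooled promoter peak are counted in these medians as ranked below every gene with one, and they are 6311 of the 13945 protein-coding genes. The lists share genes, moody standing in 3 of the lists besides its own, and most of their genes are longer than the median protein-coding gene. Every list also holds genes from the glial set chosen by these data. The part of gene length in these counts and ranks was not tested.

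**Figure D4:**
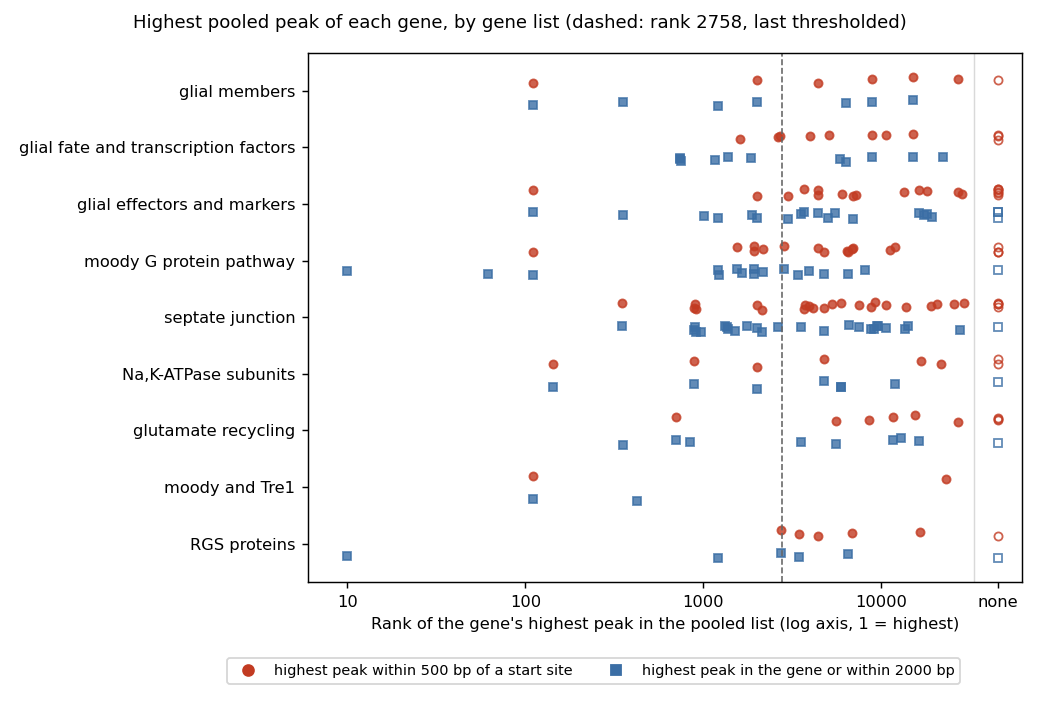
Rank in the pooled list, on a log axis where 1 is the highest, of each gene's highest peak within 500 bp of a start site (red circles) and in the gene or within 2000 bp (blue squares), by gene list; open symbols at the right have no pooled peak and the dashed line is rank 2758. The moody circle at rank 110 is the leftmost circle in every list that holds it.

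Near the edges of the rule, the peaks just inside 2000 bp were at 1964 bp from moody, with a signal of 25.2 at rank 16396, and at 1952 bp from gcm2, with a signal of 19.8 at rank 24501. Just outside were peaks at 2012 bp from repo, with a signal of 27.1 at rank 14357, and at 2163 bp from gcm, with a signal of 19.9 at rank 24363, beside the nrv1 peak at 2423 bp from nrv2. At the signal threshold, the lowest thresholded peaks were those of nrv2 at 80.7 and 80.5, and the highest below it were 58.3 at nrv2 and 58 at Gs2.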

How the data were processed

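The data are CG12744-GFP ChIP-seq peak lists from whole embryos, 2 biological replicates of 1 group. Per the deposited text records, each replicate list and the pooled list were derived from alignments and a control, and the thresholded list was made from them by the irreproducible discovery rate. The aligner is not given in the sources used here, nor is the peak caller. Column 7 holds the authors' peak signal, of unstated scale, used only within a list to rank or describe peaks. The deposited −log10 of the q value is the same, 3.83, at every thresholded peak of the glial genes and was not used to rank. Read depth is unknown. The dm3 lists were not used, and the control was not analysed here.

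Genes came from Ensembl release 115 and sequence from RefSeq, both of the dm6 build (Release 6). Coordinates are 1-based, and every annotated transcript start counted. A summit is the start plus the deposited offset. Peaks were matched between lists by summits within 100 bp. Motifs were searched within 100 bp of the summit on both strands. Intervals are exact binomial and cover counting error only. The scripts ran in Python 3.11.15 with numpy 2.4.6 and scipy 1.17.1, and peak-to-gene assignment was tested on simulated data. The gene lists were written from general knowledge, and 87 of 91 symbols were matched. The others were not analysed here.

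The members, the lists and the motifs were chosen with earlier results of these data known, and no test was made. Genes are named by rule: all 7 members, the genes whose start is nearest to a thresholded or the highest pooled peak in their windows, every listed gene with a thresholded promoter peak, and up to 2 genes on each side of moody by promoter rank. Genes named for other peaks (among them Actn, usp, Tre1, Gdh, Eaat1, Gprk2, Gbeta13F, pins, Pka-C1, ced-6 and trol, with the genes nearest to their peaks) were chosen after their values were seen. Alternatives were other distances, the 1379 highest thresholded peaks, each replicate alone, other matching rules and other motif windows.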

Additional observations from a re-analysis of the deposited data

How the results depend on the processing

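The 4 genes with a thresholded peak in the gene or within 2000 bp remained 4 with the 2758 highest peaks of either replicate alone, were 3 with the 1379 highest thresholded peaks (losing nrv2) and 6 within 5000 bp (adding gcm and gcm2 through peaks at other genes, while the background rose from 3605 to 5139 genes). The promoter count of 2 was 1 within 250 bp (background 1652 genes) and 4 within 1000 bp (adding loco and Gs2, background 2302 genes). It was 1 with the 1379 highest thresholded peaks, 3 without replicate 4 (adding loco) and 2 without replicate 2. The protein-coding backgrounds fell to 2099 and 1077 genes with the 1379 highest. Promoter counts with the 1379 highest were 0 for the fate and transcription factor list, 1 for the effectors, 1 for the moody pathway and 0 for RGS proteins. Within 1000 bp they were 4 for the effectors, 8 for the moody pathway, 2 for the glutamate genes and 3 for RGS proteins, and within 250 bp they were 1 for the effectors and 1 for the Na,K-ATPase subunits. Without replicate 4 and without replicate 2, the septate junction count of 6 was 9 and 8, and the moody pathway count of 5 was 6 and 6. The effector count of 2 was 3 and 3, and the RGS count of 1 was 2 and 1. The count of 3 in the fate and transcription factor list was 3 and 2. The Na,K-ATPase and glutamate counts stayed at 3 and 1. Windows of 50 and 200 bp to each side gave motif shares of 23.9% and 67.9% for CACTG, 2.25% and 5.98% for CAACACTG, 2.43% and 7.36% for the Dref site, 11.6% and 45.7% for GAGAG, 1.05% and 5.51% for the E-box, 0.471% and 2.14% for the Zelda site, 8.05% and 26% for TAATTA, 1.63% and 6.2% for the GATA core and 16.9% and 48.4% for CGATA. At 200 bp they were 1.52% for the gcm site and 1.45% for the Ets core. In the 5 glial windows at 200 bp, GAGAG was in 4, TAATTA in 2, CGATA in 2 and the Ets core in 1. At 50 bp, GAGAG was in 2 of 5 and TAATTA in 0 of 5. The shifts in motif shares came with shorter or longer windows. The shifts in gene counts came with other distances, with fewer peaks or with a replicate left out. No paired analysis was possible because there is 1 group. Unknown read depth limits what the absence of a thresholded peak at repo, gcm or gcm2 can show.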

Other observations

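Thresholded peaks beyond the windows of the glial genes, up to 5000 bp away, lay at the promoters of neighbouring genes. Besides the 2 nrv1 peaks near nrv2 described above, which were within the 2758 highest of both replicates, 3 were found. They were 88 bp from the start of usp, the partner of the ecdysone receptor, near moody, 61 bp from the start of Mtpalpha near gcm and 42 bp from the start of GlcAT-S near gcm2. Their pooled ranks were 2063, 2038 and 1975, with signals of 79.9, 80.2 and 81.2. Replicate 2 ranked them at 3994, 3910 and 3921, and replicate 4 at 1493, 1370 and 1378. These 3 thus ranked higher in replicate 4 and were below the 2758 highest peaks of replicate 2.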
